A study of Vigna unguiculata with 30 samples.

Results

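In cowpea (Vigna unguiculata), 50 of 31948 gene models passed a rule for genes that rise between 2 reproductive stages. The rule asked for a higher mean level at the later stage in the bottom, the middle and the top leaves of the canopy alike. The 50 were chosen from the deposited raw counts, expressed as CPM (counts divided by the library total, times 1000000). A gene model qualified if it lies on chromosomes 1 to 11, had a mean of 3 to under 1000 CPM over all libraries, and had a group mean (plus 0.5 CPM) at R3 of at least 1.8 times that at R1 at each position. In addition, its largest group mean at R1 had to be under 2.5 times its smallest. The chromosomes held 16023 gene models in that CPM range, and for 70 of these the mirror rule (R1 at least 1.8 times R3 at each position, with the same limit at R1) held.

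The study took leaf punches from 3 heights of the canopy (bottom, middle, top) of greenhouse plants of 1 genotype, IT97K-499-35. Plants were at stage R1 (week 5.5 after planting) or stage R3 (week 6.5), and each of the 6 groups had 5 libraries made from polyA RNA. The groups differ in leaf position and stage only, and no plant was treated. The replicates are labelled as biological, but a separate plant for each is not stated, so p-values measure only the spread between these samples, which may be smaller than that between plants. Libraries held 10490354 to 17420944 counts.

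In the staging used for grain legumes, R1 marks the start of flowering and R3 the start of pod formation. Leaves then become sources of carbon and nitrogen for the growing pods. Leaves at the bottom of a canopy are the oldest and the most shaded, and in annual legumes they are usually the first to yellow. In a punch of whole leaf, more cells of a type and more RNA per cell cannot be told apart. The files do not pair the identifiers with product names, and 0 of them matched the RefSeq table of cowpea, so no function is given for any gene. Markers of leaf cell types could therefore not be examined either. Coordinates are those of the deposited table, and which genome build they refer to is not stated in the labels.

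The median of the step that the rule selects was similar at the 3 positions, but single members were less even. The median ratio of R3 to R1 was 2.72 in bottom leaves (range 1.82 to 28.5), 2.69 in middle leaves (1.84 to 8.24) and 2.40 in top leaves (1.81 to 10.99). On the log2 scale these medians were 1.44, 1.43 and 1.26, against -0.02, 0.00 and -0.15 for the 16023 gene models of the same CPM range. After TMM scaling (edgeR's trimmed mean normalization) the member medians were 1.5, 1.43 and 1.43. Within a member, the log2 ratios of the 3 positions spanned a median of 0.69, and in 21 members they lay within 0.5 of each other. The ratio was largest in bottom leaves for 21 members, in middle leaves for 17 and in top leaves for 12. All these ratios were used by the rule and are descriptions, with no test.

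**Figure D1:**
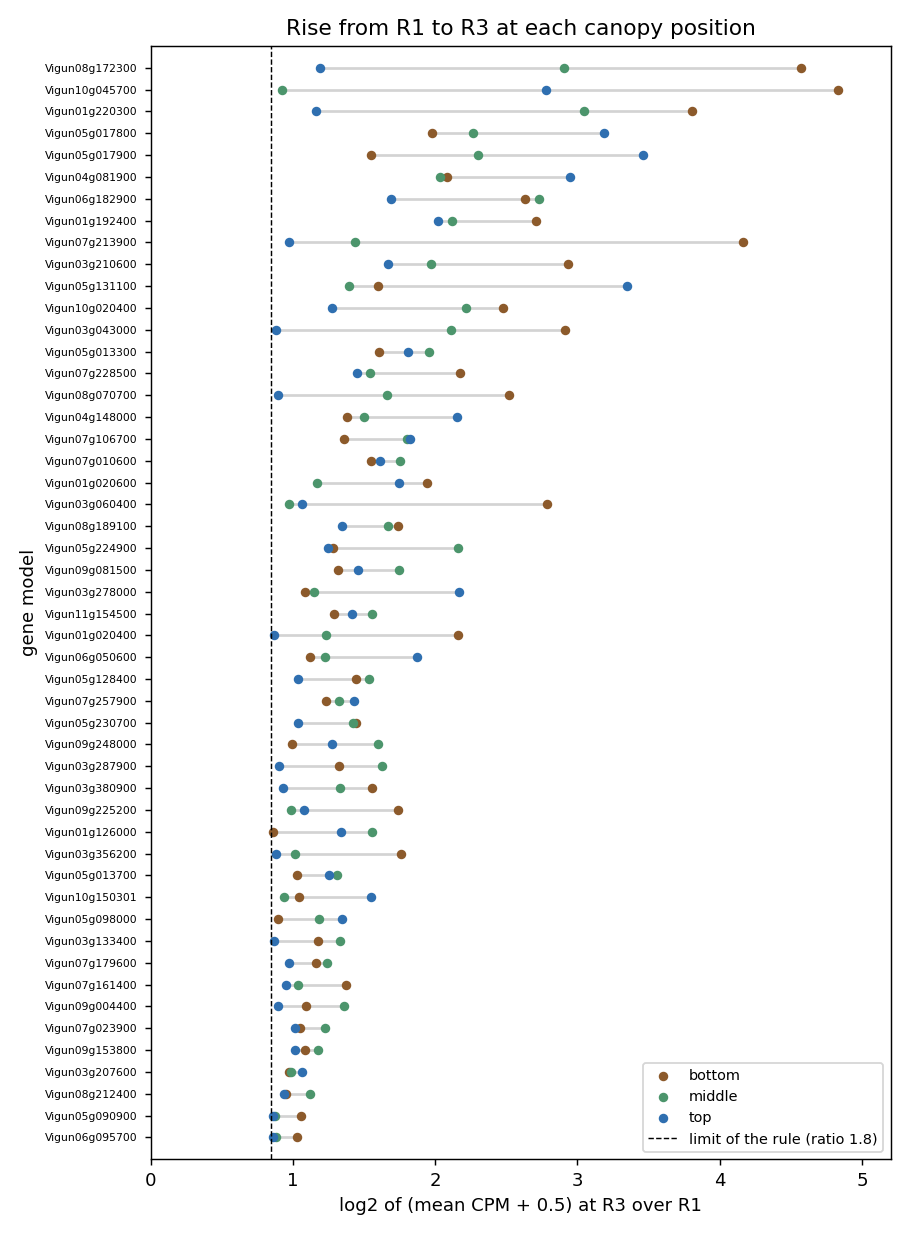
Log2 ratio of R3 to R1 (x axis) for each of the 50 gene models (y axis), with 1 dot for each canopy position and a grey line joining the 3 positions. All dots lie right of the dashed limit, by construction, and the widest lines belong to genes whose bottom ratio is far above the others, such as Vigun08g172300 (bottom ratio 23.8, middle 7.51, top 2.29).

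The group means stand on widely spread libraries. All 5 R3 libraries lay above all 5 R1 libraries for 17 members in bottom leaves, 17 in middle leaves and 12 in top leaves, where 2.54%, 1.4% and 0.449% of the 20284 genes tested did so. Because the rule used this contrast, nothing is read from these counts. In 24 members the 2 stages overlapped at all 3 positions, and in 7 they were apart at all 3. The share of all genes was not computed for these 2 counts, so nothing is read from them either. In the edgeR fit, 30 members passed an adjusted p under 0.05 as higher at R3 in bottom leaves (7.71% of all genes tested did), 18 in middle leaves (1.06%) and 15 in top leaves (0.799%), again only as a description.

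The 7 members whose stages were apart everywhere, singled out after their values were seen, were Vigun05g013300, Vigun05g017800, Vigun05g128400, Vigun05g230700, Vigun07g179600, Vigun09g153800 and Vigun11g154500. Vigun09g153800 (chromosome 9, 31928053 to 31931138, minus strand, 9 exons) had among the most even ratios of all members. In bottom leaves it stood at 138, 219, 226, 159.5 and 223 CPM in R1 replicates 1 to 5, and at 539, 292, 407, 427 and 392 CPM in R3 replicates 1 to 5. In middle leaves it stood at 71.2, 125, 92.3, 113 and 147 CPM at R1, and at 149.7, 266, 280.3, 328 and 219 CPM at R3. The lowest R3 library of the middle leaves, replicate 1, was only just above the highest R1 library, replicate 5. In top leaves the values were 99.0, 83.8, 88.6, 87.8 and 77.5 CPM at R1, and 221, 124, 140.3, 189 and 212 CPM at R3. Its ratios were 2.13, 2.26 and 2.02 from bottom to top, and its level went down from bottom to top at both stages.

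Vigun07g179600 (chromosome 7, 29642875 to 29647554, minus strand, 7 exons) had the least spread within groups of all members, a mean SD of 0.30 on the log2(CPM + 0.5) scale. Its level was 15.0 ± 4.09 CPM at R1 and 34.2 ± 3.98 CPM at R3 in bottom leaves (SD, n = 5 here and below). In middle leaves it was 10.2 ± 1.45 and 24.7 ± 6.51 CPM, and in top leaves 9.25 ± 1.35 and 18.7 ± 5.33 CPM. At each position the increase exceeded the SD of either stage.

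Vigun05g128400 (chromosome 5, 14752311 to 14755161, minus strand, 5 exons) had R3 means within 1 SD of each other at the 3 positions, with 58.8 ± 20.4, 50.1 ± 18.5 and 47.9 ± 15.8 CPM from bottom to top, against 21.3 ± 7.76, 17.0 ± 4.42 and 23.1 ± 3.02 CPM at R1. Vigun05g013300 (2 exons) had larger steps, with ratios of 3.04, 3.88 and 3.51. Its top R3 libraries stood at 25.9, 6.84, 10.2, 13.4 and 43.5 CPM and its top R1 libraries at 3.97 to 6.22 CPM. Replicates 1 and 5 were the high ones, and replicate 2 was barely above R1.

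The 2 members with the highest mean CPM were Vigun05g013700 (chromosome 5, 1076636 to 1079744, minus strand, 2 exons) and Vigun11g154500 (chromosome 11, 36358291 to 36361555, plus strand, 2 exons). Per kilobase of exon they also led, at 341 and 282 CPM per kilobase, where the median member had 15.3. Vigun05g013700 had R3 means closer to each other than the SD of any R3 group. From bottom to top they were 1211 ± 239, 1110.0 ± 357 and 1219 ± 388 CPM. At R1 the levels were, in the same order, 593 ± 366, 448 ± 116 and 511 ± 103 CPM. The R1 bottom libraries of this gene fell far apart, with 868 and 1088 CPM in replicates 3 and 5 and 258 to 439.9 CPM in the other 3.

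The bottom R1 libraries split in the same way for Vigun11g154500. There it stood at 972 and 965 CPM in replicates 3 and 5 and at 241, 545 and 255 CPM in replicates 1, 2 and 4. All bottom R3 libraries were higher, at 1626, 1613, 1377, 1436 and 1243 CPM. In middle leaves it was at 147, 295, 332, 356 and 401 CPM at R1 and at 491, 697, 995, 1188 and 1144 CPM at R3. In both middle groups replicate 1 was the lowest library. Top leaves held 515, 251, 356, 323 and 327 CPM at R1 and 1252, 637, 632, 901 and 1309.8 CPM at R3, and the stages did not overlap at any position.

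Some members had a much larger step in bottom leaves. Vigun07g213900 (chromosome 7, 33519511 to 33523207, minus strand, 3 exons) had 11.8, 57.2, 11.2, 45.7 and 27.8 CPM in bottom R1 libraries and 457, 271, 933, 417 and 716 CPM in bottom R3 libraries, a ratio of 17.9. The same gene went from 48.2 ± 13.5 to 131 ± 43.5 CPM in middle leaves (ratio 2.71). In top leaves it went from 56.5 ± 33.4 to 111 ± 48.5 CPM (ratio 1.96), and there the stages overlapped, with 1 top R1 library at 115 CPM and 1 top R3 library at 38.6 CPM. Thus it was lowest in bottom leaves at R1 and highest there at R3.

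Vigun01g220300 (chromosome 1, 39403274 to 39405050, plus strand, 5 exons) was at 2.59 CPM or less in every R1 library. Bottom R1 libraries held 0.520, 2.59, 0.683, 1.22 and 1.15 CPM and bottom R3 libraries 22.6, 12.7, 44.5, 13.8 and 24.9 CPM (ratio 14.0). Middle leaves went from 0.0731 to 0.874 CPM over the R1 libraries to 5.02 to 13.5 CPM over the R3 libraries (ratio 8.24). Top leaves reached only 0.409 to 3.78 CPM at R3 and overlapped R1 (0.0883 to 1.65 CPM). Here the R3 levels step down from bottom to top.

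Vigun08g172300 (chromosome 8, 34322277 to 34323927, minus strand, 4 exons) had the same order of R3 means, with a wider spread between libraries. It was at 0 to 1.83 CPM in all R1 libraries. Bottom R3 libraries held 59.3, 1.21, 22.3, 72.2 and 17.6 CPM, so replicate 2 was within the R1 range. Middle R3 libraries held 2.43, 5.18, 2.60, 20.7 and 3.03 CPM, and the middle ratio of 7.51 was 3.93 without replicate 4. The 5 top R3 libraries had 2.51, 0.789, 0.572, 0.396 and 0.889 CPM, a mean only 2.29 times that at R1 on the offset scale. At such levels the offset of 0.5 CPM makes the ratios smaller than those of the counts.

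Among the members with the largest step in top leaves were 2 neighbours on chromosome 5. Vigun05g017800 (1449948 to 1450911) and Vigun05g017900 (1451679 to 1452812) both lie on the plus strand, have 1 exon each, and are 767 bases apart with no gene model between them. Vigun05g017900 stood at 2.67, 2.65, 3.11, 3.86 and 2.65 CPM in top R1 libraries and at 62.4, 10.5, 15.3, 33.2 and 67.6 CPM in top R3 libraries, a ratio of 10.99. Vigun05g017800 stood at 1.62, 2.98, 0.963, 1.18 and 1.24 CPM in top R1 libraries and at 28.3, 6.40, 7.11, 19.0 and 32.0 CPM in top R3 libraries, a ratio of 9.09. In both genes replicates 1, 4 and 5 were the high top R3 libraries. In bottom leaves their ratios were 2.93 and 3.94. The 2.93 of Vigun05g017900 was 4.82 without bottom R1 replicate 5, which at 14.6 CPM exceeded 3 of the R3 libraries (11.2, 11.4 and 13.3 CPM). If the pair are near-identical copies, reads could have been split between them, since how ambiguous reads were counted is not stated.

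**Figure D2:**
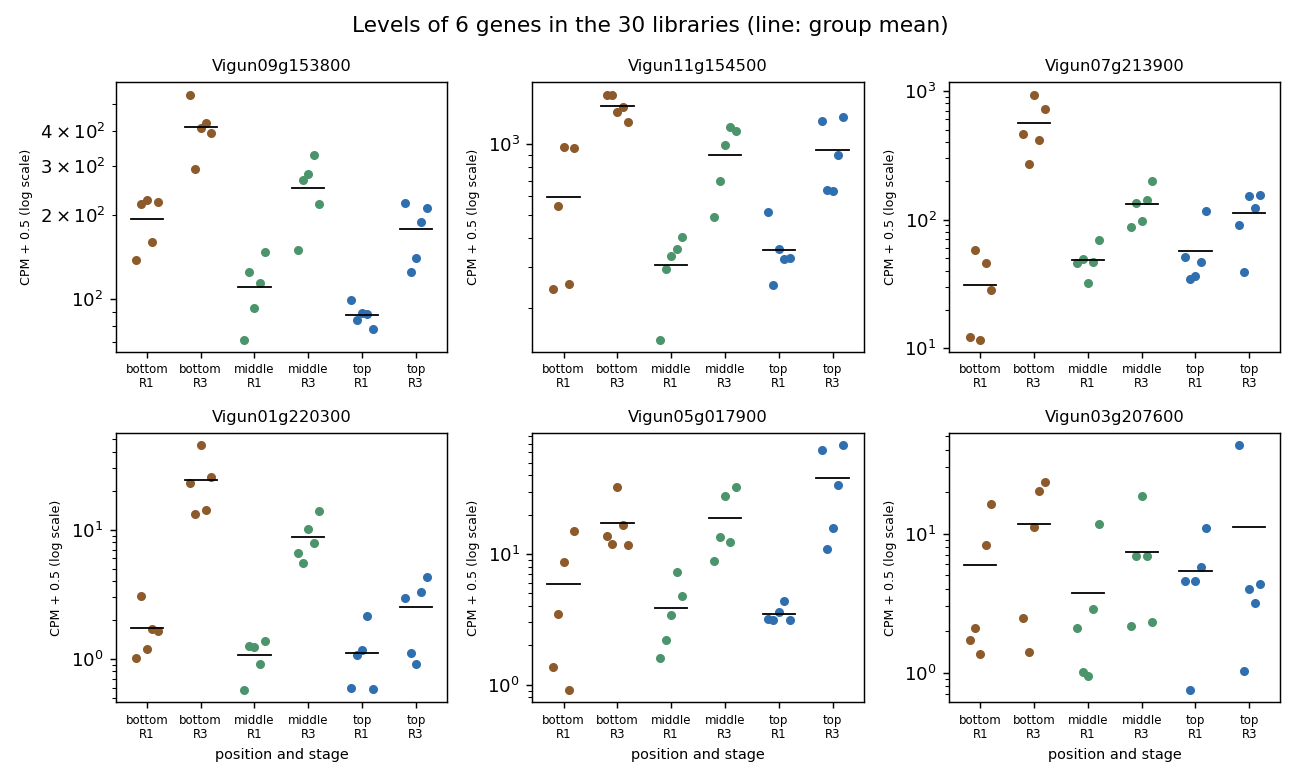
CPM + 0.5 on a log scale (y axis) of 6 gene models in the 30 libraries, by canopy position and stage (x axis), with 1 dot per library and a line at the group mean. Vigun09g153800 and Vigun11g154500 show stages apart at every position, Vigun07g213900 and Vigun01g220300 larger steps in bottom than in top leaves, Vigun05g017900 a larger step in top than in bottom leaves, and Vigun03g207600 stages that overlap everywhere.

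An even ratio did not mean even libraries. Vigun03g207600 (chromosome 3, 33947851 to 33949442, plus strand, 4 exons) had the most similar ratios of all members, 1.97, 1.98 and 2.09. Its top R3 libraries stood at 42.7, 0.526, 3.51, 2.69 and 3.85 CPM, against 4.10, 0.248, 4.08, 5.28 and 10.5 CPM at R1. Without top R3 replicate 1 its top ratio was 0.589, which turns the direction. Without middle R3 replicate 3 the middle ratio was 1.23, and without bottom R3 replicate 5 the bottom ratio was 1.47. Leaving out replicate 5 of R1 instead raised the bottom ratio to 3.50 and the middle ratio to 4.25.

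Wide spread at every position marked Vigun01g192400 (chromosome 1, 37040013 to 37040812, plus strand, 2 exons), picked out as the member with the largest within-group SD (2.08 on the log2 scale). Its bottom R3 libraries stood at 4.81, 15.5, 206, 266 and 115 CPM and its middle R3 libraries at 5.14, 23.8, 117, 204 and 124 CPM. At R1 replicate 5 was the highest library at each position (44.3, 80.5 and 48.7 CPM from bottom to top). The ratios of 6.53, 4.33 and 4.05 became 10.0, 13.2 and 12.0 without that replicate. Vigun04g081900 (chromosome 4, 12375943 to 12376767, plus strand, 1 exon) was the other member with a ratio of 4 or more at all 3 positions (4.23, 4.11 and 7.71). Its top R3 libraries held 42.8, 5.87, 2.13, 5.30 and 9.93 CPM, all above the top R1 libraries at 0.827 to 1.62 CPM. The top ratio was 3.55 without top R3 replicate 1, and the bottom ratio was 8.73 without bottom R1 replicate 5.

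Other members rested on single libraries too. A single library gave more than 0.5 of the summed CPM of the 5 R3 libraries in 8 members in bottom leaves, 10 in middle leaves and 11 in top leaves. Vigun10g045700 (chromosome 10, 6713937 to 6719876, plus strand, 6 exons), picked out by its values, had the largest bottom ratio of all members, 28.5. Bottom R3 libraries held 0.158, 0.0604, 2.84, 75.0 and 9.79 CPM, and the ratio was 5.85 without replicate 4. Its middle ratio of 1.90 was 1.11 without middle R3 replicate 4. In top leaves the ratio of 6.87 was 1.00 without top R3 replicate 1, which held 17.1 CPM while the other 4 held up to 0.237.

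When the rule was applied without each of the 30 libraries in turn, it gave 36 to 63 gene models. Of the 50, 12 qualified every time, 10 failed in 1 or 2 of the 30 cases and 28 in 3 or more. The 12 were Vigun01g220300, Vigun03g210600, Vigun05g013300, Vigun05g017900, Vigun05g128400, Vigun05g224900, Vigun06g050600, Vigun07g010600, Vigun07g106700, Vigun09g081500, Vigun09g153800 and Vigun11g154500. Their median ratios were 2.64, 3.43 and 2.90 from bottom to top. The member nearest the limit was Vigun06g095700 (chromosome 6, 22685511 to 22691374, plus strand, 10 exons), with ratios of 2.04, 1.84 and 1.81. Just outside it was Vigun02g080100 (chromosome 2, 23286732 to 23290230, plus strand, 17 exons), with 1.79, 2.10 and 3.44. The libraries of Vigun06g095700 spread far more widely than the gap between those least ratios, with 76.4 to 233 CPM over the 5 top R3 libraries.

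Between positions, the members were not even at R3. Their largest R3 mean (plus 0.5 CPM) was a median of 1.96 times their smallest, with a range of 1.10 to 22.9, where the rule held this to under 2.5 at R1 (median 1.68). It exceeded 2.5 in 16 members. The highest R3 mean was in bottom leaves for 33 members, in middle leaves for 7 and in top leaves for 10, against 32, 13 and 5 at R1. These counts and spreads rest on CPM of library totals, with no TMM scaling. Without TMM, the median log2 fold change over all genes tested was -0.33 for top versus bottom at R3 and -0.23 for middle versus bottom. With TMM these medians were -0.02 and -0.05. The part of this offset in the counts and spreads was not tested, so they are not read as a trait of the members. The rule did not use the contrast between positions at R3 directly, and put a lower bound on each R3 mean. Its limit at R1, however, took out 54 of the 104 gene models past the ratio at all 3 positions. Positions that are close at R1 may stay so at R3, so this contrast is not independent of the rule. The contrast at R3 was tested by edgeR's quasi-likelihood method in 1 fit of all 6 groups and adjusted over all 20284 genes. All 50 members passed the filter on low counts.

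In top versus bottom leaves at R3, 11 members were lower at the top (25.8% of all genes tested were) and 3 were higher (26.1% of all). The median log2 fold change of the 50 was -0.29, and that of all genes -0.02. Together 14 members, or 28%, were called, a smaller share than the 51.9% of all genes. Because the rule limited the spread between positions at R1, nothing is read from this smaller share. The median within-group SD of the members was 0.79 on the log2 scale, where the gene models of the CPM range had 0.31, and its part in this smaller share was not tested. All top libraries lay below all bottom libraries in 9 members, where 23.7% of all genes did so. One of the 9, Vigun01g020600, was not called (-1.23 on the log2 scale, SE 0.68, adjusted p in edgeR 0.132), and the other 8 were.

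**Figure D3:**
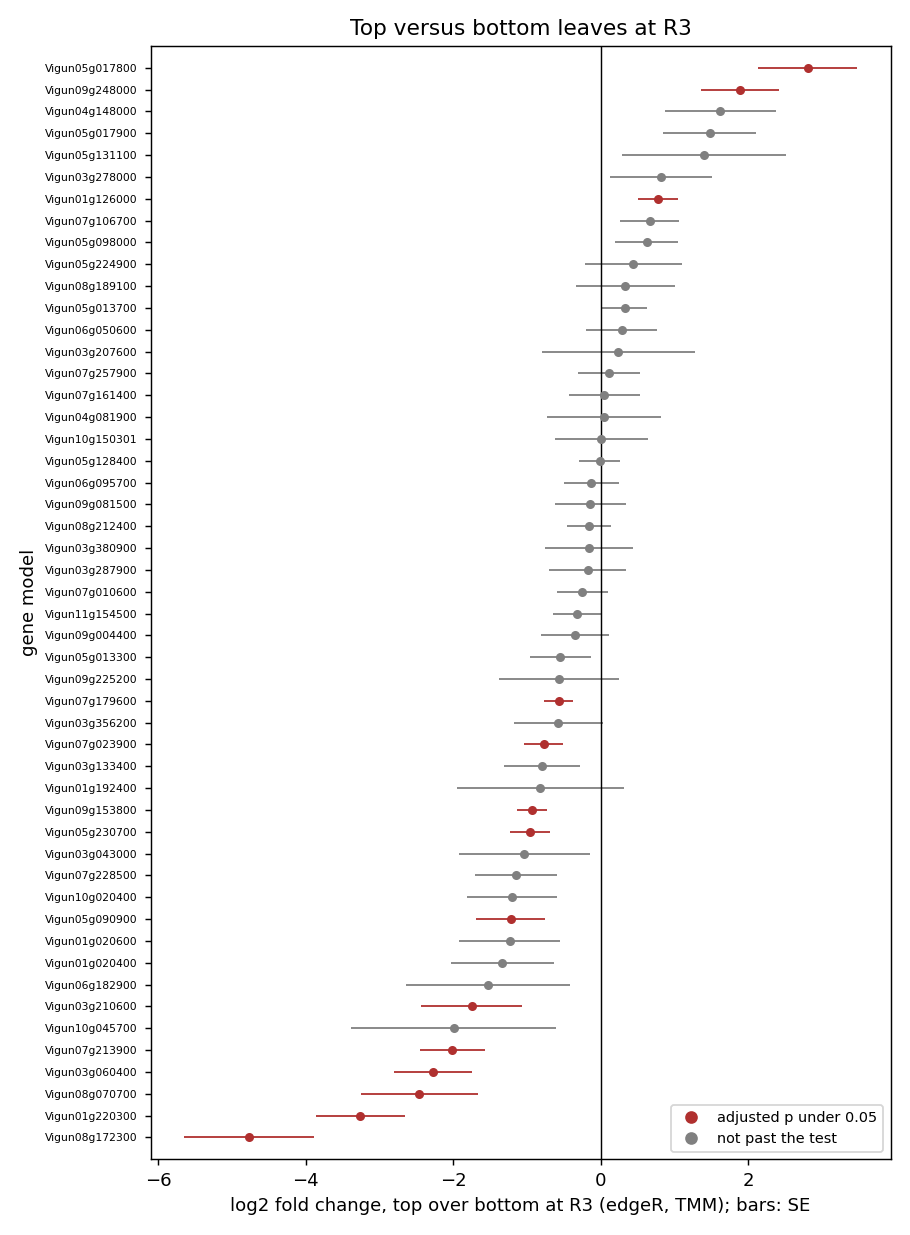
Log2 fold change of top over bottom leaves at R3 (x axis; bars, SE; edgeR with TMM) for the 50 gene models (y axis), in red where the adjusted p is under 0.05. The red dots are 11 genes left of 0, led by Vigun08g172300 and Vigun01g220300, and 3 genes right of it.

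Vigun01g220300, described above, differed from bottom to top by -3.26 on the log2 scale (SE 0.60, adjusted p in edgeR 9.5e-05), with every top library under every bottom library. The next without overlap was Vigun03g060400 (chromosome 3, 4945412 to 4947343, minus strand, 3 exons), at 215, 55.0, 73.5, 257 and 78.6 CPM in bottom and 46.0, 9.20, 13.8, 32.7 and 16.3 CPM in top R3 libraries. The difference was -2.27 on the log2 scale (SE 0.53, adjusted p in edgeR 0.000958). Exons of Vigun03g060400 overlap those of Vigun03g060300, the only overlap with another gene model among the members, and its counts are uncertain for that reason. Vigun08g172300 had a larger difference (-4.77, SE 0.88, adjusted p in edgeR 9.6e-05), but bottom replicate 2 lay within the range of the top libraries. Vigun08g070700 (chromosome 8, 11356501 to 11359156, plus strand, 6 exons), which had the highest r of all members with the others in the deviations described later (0.83), was also called lower at the top (-2.46). Its bottom R3 libraries stood at 123, 23.9, 127, 292 and 279 CPM and its top R3 libraries at 62.7, 8.41, 8.91, 13.8 and 29.9 CPM, so bottom replicate 2 again fell among the top libraries. The other lower members were Vigun03g210600 (-1.75), Vigun05g090900 (-1.22), Vigun05g230700 (-0.96), Vigun07g213900 (-2.01), Vigun09g153800 (-0.93), Vigun07g023900 (-0.77) and Vigun07g179600 (-0.57).

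The 3 members higher at the top were Vigun05g017800, Vigun09g248000 and Vigun01g126000, named because they are few, and in each the top and bottom ranges overlapped. Vigun05g017800 had 1.26, 1.75, 7.54, 3.91 and 2.01 CPM in bottom R3 libraries, against 6.40 to 32.0 CPM in top R3 libraries (2.80 on the log2 scale, SE 0.67, adjusted p in edgeR 0.00117). For Vigun09g248000 the difference was 1.89 (SE 0.53, adjusted p in edgeR 0.00467). Vigun01g126000 (chromosome 1, 30315707 to 30318014, minus strand, 3 exons) averaged 56.2 CPM in bottom R3 and 77.6 CPM in top R3 leaves (0.77, SE 0.27, adjusted p in edgeR 0.0181). Vigun05g017900, next to Vigun05g017800 on the chromosome, had 16.8 ± 8.67 CPM in bottom and 37.8 ± 26.3 CPM in top R3 leaves and missed the threshold (1.47, SE 0.63, adjusted p in edgeR 0.0514).

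In middle versus bottom leaves at R3, 8 members were lower in the middle (9.75% of all genes tested were) and 1 was higher (12.8%). Vigun07g213900 was lower in the middle (-1.92 on the log2 scale, SE 0.44, adjusted p in edgeR 0.00284), and all 5 middle libraries, at 87.4 to 197 CPM, were under all bottom ones, at 271 to 933 CPM. Vigun05g230700 (chromosome 5, 42422787 to 42425190, minus strand, 6 exons) had 268, 184, 205, 185 and 177 CPM in bottom and 55.8, 71.7, 95.5, 98.9 and 116 CPM in middle R3 libraries (-1.07, SE 0.27, adjusted p in edgeR 0.00576). Both calls held in the 16 alternatives tried for each. The 1 higher member was Vigun09g248000 (chromosome 9, 41573237 to 41576173, minus strand, 2 exons). Its bottom R3 libraries had 0.394, 0.785, 3.67, 4.43 and 2.57 CPM and its middle R3 libraries 4.59, 6.74, 7.28, 6.62 and 5.67 CPM (1.57, SE 0.53, adjusted p in edgeR 0.0334). That call ended without bottom replicates 1, 2 or 5 or middle replicates 1, 2 or 3 (adjusted p in edgeR 0.0502 to 0.0871), without TMM (0.0533) and in a fit of those 2 groups only (0.0603).

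The count of 9 members for middle versus bottom (22.5% of all genes were called in either direction) changed without single libraries. Members at an unadjusted p under 0.05 in edgeR were 11, and 9 to 12 without single libraries. Over all genes 4570 were called, and 3184 to 5309 without single libraries, so the adjusted threshold moved too. The count of members was 5 without bottom replicate 1, 4 without bottom replicate 4, middle replicate 1, middle replicate 2 or middle replicate 5, and 3 without middle replicate 3. Without TMM scaling 9 members were lower and 0 higher, and 5357 genes were called over all genes. The median over all genes was then -0.23, where TMM left it at -0.05. In top versus middle leaves at R3 the test passed for Vigun01g220300 only (1.56% of all genes were lower at the top and 4.79% higher), at -1.91 on the log2 scale (SE 0.58, adjusted p in edgeR 0.047). Top and middle ranges of this gene did not overlap. Over all genes 1288 were called in this contrast, and 83 to 2000 without single libraries. The call of Vigun01g220300 ended without middle replicates 2, 3, 4 or 5 or top replicates 1, 2 or 3 (adjusted p in edgeR 0.0556 to 0.154), with no filter (0.0546) and in a fit of those 2 groups only (0.153).

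Within a group, the members tended to be high or low in the same libraries. The rule took group means and did not use deviations of a library from its group mean directly. However, 1 high library can set such a mean, so genes high in the same R3 library can be chosen together. Genes with a wide spread also reach a given ratio of means more easily. The deviations are therefore not independent of the rule. Over the 1225 pairs of members, the median Pearson's r of these deviations across the 30 libraries was 0.37 and the mean 0.36, where the mean over all pairs of the 16023 gene models was 0.08. For 37 members, r with the mean of the other 49 was above 0.5. Of the gene models in the CPM range, 13.0% had an r above 0.5 with the mean of the members, and their median r was 0.12. Only Vigun03g380900, Vigun08g189100 and Vigun03g278000 had an r under 0.2 with the others. These correlations are descriptions: members of a pair share libraries and depth.

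**Figure D4:**
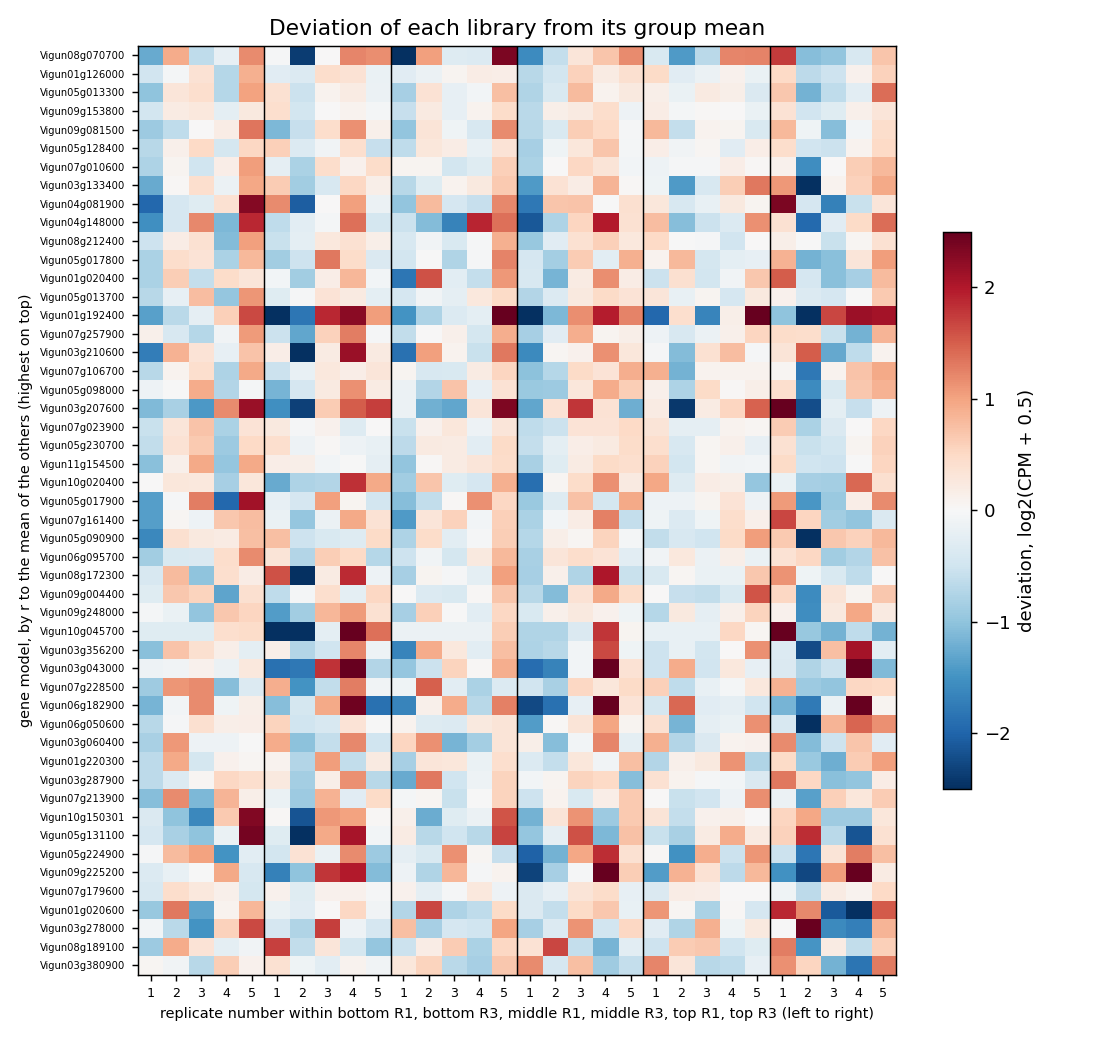
Deviation of each library from its group mean in log2(CPM + 0.5) (colour), for the 50 gene models (rows, those closest to the mean of the others on top) and the 30 libraries (columns, in groups of 5). Columns of mostly 1 colour, such as the blue replicate 1 of middle R3 and the red replicate 5 of middle R1, are libraries in which most members deviated together.

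At R1, replicate 5 held the highest value of 35 of the 50 members in middle leaves (70%, against 29.1% of gene models in the CPM range) and of 26 in bottom leaves (52% against 22.9%). Replicate 1 held the lowest value of 30 members in middle leaves (60% against 23.4%) and of 25 in bottom leaves (50% against 27.6%). In top leaves at R1 no library stood out to that extent, and replicate 2 held the lowest value of 22 members (44%), close to the 47.5% of all gene models in the range. Top R1 libraries were also the closest together in the mean level of the members, with an SD of 0.22 against 0.50 and 0.53 in middle and bottom leaves.

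At R3, replicate 1 of the middle leaves held the lowest value of 39 members (78% against 46.4%) and replicate 4 the highest of 26 (52% against 47.3%). In bottom leaves replicate 2 was lowest for 28 members (56% against 10.9%) and replicate 4 highest for 24 (48% against 21.6%). In top leaves replicate 2 was lowest for 27 members (54% against 37.6%) and replicate 5 highest for 21 (42% against 11.6%). The depth of these libraries differed: bottom R1 replicate 5 and bottom R3 replicate 4 held 17420944 and 17378175 counts, bottom R3 replicate 2 held 16551644, and middle R3 replicate 1 held 14392374. Bottom and middle R1 replicate 1 held 11549482 and 13688487 counts, middle R1 replicate 5 held 11446373 and top R1 replicate 2 held 12084687. Middle R3 replicate 4 held 13453574, and top R3 replicates 2 and 5 held 11411533 and 13500785. The part of depth in these deviations was not tested.

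**Figure D5:**
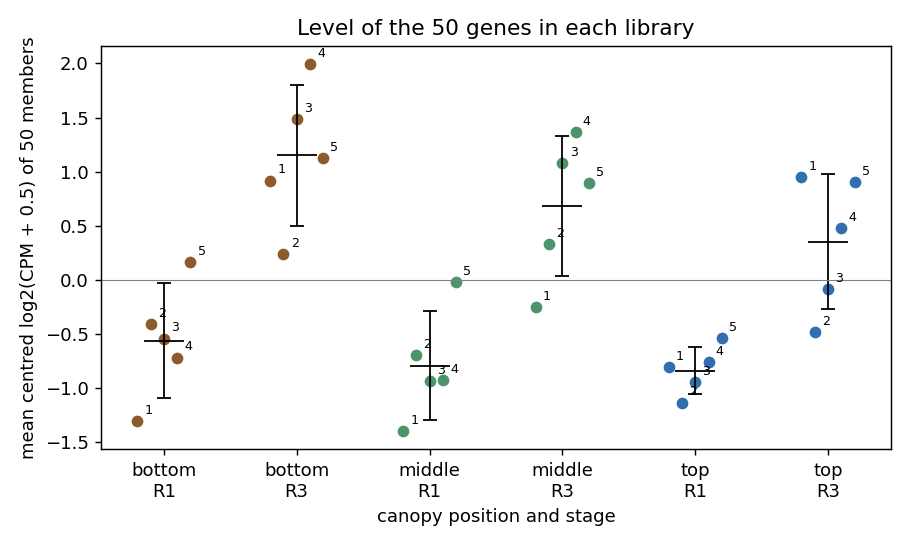
Mean level of the 50 gene models in each library, as log2(CPM + 0.5) centred on each gene's mean over 30 libraries (y axis), by canopy position and stage (x axis). Numbers are replicate numbers and black bars are mean ± SD of 5 libraries. In middle leaves the lowest R3 library (-0.25) lies under the highest R1 library (-0.02). In top leaves the lowest R3 library (-0.48) lies just above the highest R1 library (-0.54).

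The mean centred level of the members at R1 was, from bottom to top, -0.56 ± 0.53, -0.79 ± 0.50 and -0.84 ± 0.22. At R3 it was 1.15 ± 0.65, 0.68 ± 0.64 and 0.35 ± 0.62. In bottom leaves all R3 libraries (0.24 or more) lay above all R1 libraries (0.16 or less). In middle leaves replicate 1 at R3 (-0.25) lay under replicate 5 at R1 (-0.02). In top leaves all R3 libraries (-0.48 or more) lay above all R1 libraries (-0.54 or less). The rule selected the step between the stages, so these levels are descriptions. Summed over the 50 genes, the CPM from bottom to top was 3129 ± 1509.7, 2259 ± 742 and 2292 ± 484 at R1, and 7977 ± 1528, 5795 ± 2422 and 5957 ± 2029 at R3. These sums mostly follow the most abundant members, since the mean CPM of a member ran from 3.00 to 849 (median 17.7).

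Members shared some features of gene structure that the rule did not use. They had a median of 3 exons (range 1 to 22), where the gene models of the same CPM range had 7. A single exon was found in 11 members (22%, against 9.65%) and 10 or more exons in 6 (12% against 42.0%). Their median summed exon length was 1612 bases, against 2018. On the plus strand lay 27 of the 50. No test was run on these shares.

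They lay on 10 of the 11 chromosomes, with 10 on chromosome 5, 9 on chromosome 3 and 8 on chromosome 7, which hold 10.2%, 16.6% and 10.6% of the gene models in the CPM range. Chromosome 2 held 0, against 7.35% of those gene models. Besides the adjacent pair on chromosome 5, there were 2 pairs with up to 10 gene models between them. Vigun05g013300 (1053294 to 1056324, plus strand) and Vigun05g013700 on the minus strand are 20311 bases apart, with 3 gene models between them. Those 3 had ratios under 1 at every position, 0.322 to 0.743. Vigun01g020400 and Vigun01g020600 on chromosome 1, each with 1 exon on the plus strand, have 1 gene model between them. This one, Vigun01g020500, had a mean of only 1.08 CPM and ratios of 2.12, 1.72 and 1.35.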

How the data were processed

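Leaf polyA RNA of 30 libraries was sequenced. The authors deposited raw counts per gene model, with whole reads as the unit; HISAT2, featureCounts and DESeq2 are named per the submitters' processing notes, and neither build, strand setting nor versions are stated there. All 30 value columns were matched to samples by label (0 left over). The normalized table was not used here. The members, lists and alternatives were chosen with earlier results of these data known.

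From the counts, CPM on library totals gave the members and all levels. Genes passing filterByExpr by group (20284) were scaled by TMM and fitted with edgeR 4.0.16 in R 4.3.3 (quasi-likelihood, 6 groups, Benjamini-Hochberg adjustment). Both the rule and the fit were run on simulated data as a self-test of the code. Those runs did not use the members' own spread, so they cannot show how stable membership is. An SE is the size of the log2 fold change over the root of its F statistic. A rule fixed which genes to name. It took the 2 highest in mean CPM, the 2 largest ratios per position (mean of at least 5 CPM, stages apart) and those nearest the limit. It also took the 2 most even, the 2 least spread and up to 2 per direction for each R3 contrast (called, ranges apart). Other members, such as Vigun04g081900 and Vigun08g070700, were named after the results were seen. Lists of genes by product name were not analysed, as 0 identifiers matched a named gene. Alternatives changed the rule's limits, the scaling, the filter, the fit (DESeq2 1.42.0, 2 groups only, a replicate block) and left out each library.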

Additional observations from a re-analysis of the deposited data

Results flagged for a closer look

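The CPM of the 14 members named by the stated rule and the mean level of all members were examined in each group of 5 libraries. In these 90 sets, a library was marked if its gap to the nearest other exceeded 0.71 of the range. This marked 9 sets, where about 1 in 20 is marked for independent, normally distributed values. The sets share libraries, so that rate is only a guide. Members named outside the rule, such as Vigun10g045700, were not examined. On the log2(CPM + 0.5) scale 0 of the sets of single genes were marked. Vigun03g207600 was apart in middle R1 replicate 5 (11.2 CPM, others up to 2.38), in middle R3 replicate 3 (18.1 CPM, others up to 6.43) and in top R3 replicate 1 (42.7 CPM, others up to 3.85). Vigun08g172300 was apart in middle R3 replicate 4 (20.7 CPM, others up to 5.18) and in top R3 replicate 1 (2.51 CPM, others up to 0.889). Middle R1 replicate 5 was also apart for Vigun05g017800 (2.10 CPM, others up to 0.592), and top R1 replicate 5 for Vigun07g213900 (115 CPM, others up to 50.8). Bottom R1 replicate 2 was apart for Vigun03g060400 (37.7 CPM, others up to 17.3), and bottom R3 replicate 3 for Vigun05g017900 (31.9 CPM, others up to 16.2). All 9 were the highest library of their group.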

How the results depend on the processing

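The number of members followed the limits of the rule: 126 at a ratio of 1.5, 28 at 2, 104 with no limit at R1 and 33 with a mean of at least 10 CPM. It was 80 with DESeq2 size factors and 75 with TMM, each holding 49 of the 50. With group medians in place of means it was 74, of which only 31 were among the 50. Without single libraries it was 36 to 63. The median log2 ratio of the members ran from 1.30 to 1.70 in bottom, 1.34 to 1.61 in middle and 1.2 to 1.38 in top leaves without single libraries. For top versus bottom at R3, 9 members were called at 2-fold or more, and the count over all genes at 2-fold was not made. Without single libraries 11 to 16 were called at any fold (9749 to 10579 over all genes). For middle versus bottom, 4 were called when only those 2 groups were fitted (3671 over all genes). Without single libraries 3 to 8 were called there (3184 to 5309 over all genes). For top versus middle, 2 were called without TMM (1545 over all genes) and 3 by DESeq2 1.42.0 (2312). Without single libraries 0 to 2 were called there (83 to 2000 over all genes). edgeR called 0 there with no filter (1103 over all genes) and when only those 2 groups were fitted (33). It also called 0 with the replicate number as a block (1282 over all genes). Members at an unadjusted p under 0.05 in edgeR were 4, 4 and 8, in the same order. With the replicate block 15 members were called for top versus bottom (10477 over all genes) and 7 for middle versus bottom (4556). The call of Vigun01g220300 for top versus middle ended with that block (adjusted p in edgeR 0.0556). Same-numbered R3 libraries deviated together in part: r over all genes was 0.071 to 0.519 for middle and bottom (above 0.1 in 4 of 5 pairs), -0.035 to 0.435 for top and middle (3 of 5) and -0.108 to 0.134 for top and bottom (1 of 5). Of the 10 libraries of each pair of groups, 4, 4 and 1 correlated best with their own number, so a pairing was not assumed. At R1, a stage with no test of members here, all 5 pairs of middle and bottom exceeded 0.1 (0.221 to 0.56). There 9 of the 10 libraries correlated best with their own number. For top and middle at R1 it was 8 of 10 (4 of 5 pairs above 0.1), and for top and bottom 1 of 10 (1 of 5). Replicate numbers may thus link some positions, and the main fit did not use such a link. Fold changes of the named calls kept their direction throughout. The effect of depth (10490354 counts or more) on single members was not tested. The causes of these changes were not tested.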
